A study of Mus musculus with 23 samples.

Results

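The wound rim of the mouse ear was compared between cub and wild-type mice 24 h after a hole was punched. The members were the 6 arrays titled as mutant or control tissue at 24 h, 3 of each genotype, out of 23 arrays in the series. The difference was taken as cub minus wild type for each of 19938 annotated genes. The cub mice were Rhbdf2cub/cub of the strain B6.Cg-Rhbdf2cub/J, and the wild-type mice were Rhbdf2+/+ of the strain C57BL/6J. Mice of both genotypes were 4 weeks old and female by the series' design. Each ear had received a 2-mm hole, and a 3-mm punch then removed the 1-mm ring of tissue around it, from which total RNA was hybridised to Affymetrix Mouse Gene 1.0 ST arrays. The remaining arrays covered the same genotypes at 0 h, 15 min and 2 h. By its name the cub strain is congenic, so donor sequence carried along with the allele cannot be told apart from the allele itself, and no source used here states that the controls were littermates. A ring of ear holds epidermis, follicles, dermis, muscle, vessels and immune cells together, and in such bulk tissue fewer cells of a type cannot be told apart from less RNA per cell.

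Rhbdf2 encodes iRhom2, a membrane protein related to rhomboid proteases that has no protease activity of its own. It carries the sheddase ADAM17 to the cell surface, where ADAM17 releases ligands of the epidermal growth factor receptor (EGFR), tumour necrosis factor and other proteins from the membrane. In skin, EGFR acts through the MAPK cascade and AP-1 transcription factors, and injured keratinocytes use this route to migrate and to make cytokines and proteases. Mice homozygous for cub are known for a sparse coat and for fast closure of ear holes.

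All values are log2 values made by RMA, a method that corrects, quantile normalizes and summarizes probe signals, so that a difference of 1 on this scale is a 2-fold difference. Group levels carry the standard deviation and differences the standard error from limma, whose p-values were adjusted over all genes by the Benjamini-Hochberg method. Medians of the 24 h arrays ran from 6.37 to 6.43, and the arrays correlated at 0.9961 to 0.9977 across genes within a genotype and at 0.9933 to 0.9967 between genotypes. The number of arrays limits the precision. Levels of the defining markers were those of ear skin, with Krt14 of basal keratinocytes at 12.86 ± 0.00 in cub and 12.88 ± 0.08 in wild type, Col1a1 of fibroblasts at 11.34 ± 0.11 and 10.76 ± 0.21, and Acta1 of skeletal muscle at 12.06 ± 0.08 and 11.72 ± 0.09 (SD, n = 3 each). Cartilage was seen weakly through Col2a1, at 7.38 ± 0.15 in cub and 7.21 ± 0.15 in wild type. Xist stood at 11.28 ± 0.06 in cub and 11.25 ± 0.08 in wild type, and the Y-linked Kdm5d at 4.49 ± 0.11 and 4.44 ± 0.02, as in female mice.

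At 24 h 1133 of 19938 genes, or 5.68%, passed an adjusted p of 0.05. Of these, 447 were higher in cub (2.24%) and 686 were lower (3.44%), while the median difference over all genes was 0.00. Most differences were small. Only 20 of the genes that passed differed by 2-fold or more, 12 of them higher and 8 lower, and at 1.5-fold there were 66 higher and 60 lower. The 3 cub arrays lay wholly above the 3 wild-type arrays for 1677 genes (8.41%) and wholly below them for 1975 (9.91%). These shares of genes called higher, called lower or not overlapping are the ones to read beside the list counts below. With each array centred on its own median, 599 genes were higher and 556 lower. The number of calls also rested on single arrays, with 443 called without cub replicate 3, and it was 258 when just these 6 arrays were fitted. Cub replicate 3 had the highest mean level of neutrophil and of macrophage markers among the 6 arrays, and its part in the calls beyond these counts was not tested.

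**Figure D1:**
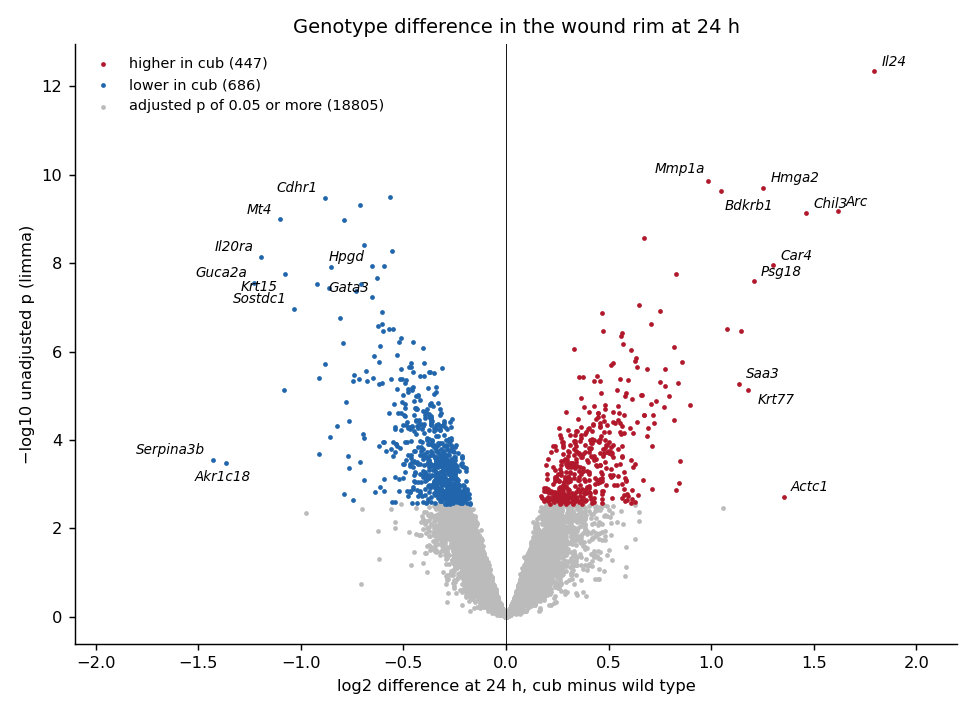
Each point is 1 of 19938 genes, with the log2 difference at 24 h (cub minus wild type) on the horizontal axis and −log10 of the unadjusted limma p on the vertical axis. The 447 genes higher and the 686 genes lower in cub are coloured; Il24 stands highest and farthest right, at a difference of 1.79.

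Rhbdf2 itself was lower in cub at this time. It read 8.45, 8.30 and 8.20 in the cub rims, against 8.57, 8.85 and 9.01 in the wild-type rims, and the groups did not overlap (−0.49 ± 0.09, adjusted p = 0.00218). The probes were not placed relative to the cub mutation, so this level does not check the genotype. The call was lost in a fit of these 6 arrays alone (adjusted p = 0.0729, between 0.000178 and 0.0729 across the 14 alternatives). Of 11 iRhom, sheddase and ErbB receptor genes, no other one passed, and the median was 0.00. Egfr, the receptor, was at 10.52 ± 0.09 in cub and 10.53 ± 0.06 in wild type (SD, n = 3 each), and Adam17, the sheddase, differed by 0.04 ± 0.06.

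Among the ligands of this receptor family, 3 of 10 tested rose in cub and none fell, with a median of 0.23. Nrg1, the neuregulin that binds ErbB3 and ErbB4, read 7.42, 7.86 and 7.45 in cub rims, against 7.0, 6.88 and 7.03 in wild-type rims (0.61 ± 0.09, adjusted p = 0.000335). Its 2 groups of arrays were apart, and the call held under every alternative run. Tgfa, the EGFR ligand of keratinocytes, read 10.34, 10.09 and 10.07 in cub rims, against 9.29, 9.79 and 9.88 in wild-type rims (0.51 ± 0.11, adjusted p = 0.0102). Epgn, or epigen, a further EGFR ligand, read 11.77, 11.60 and 11.67 in cub rims, against 10.89, 11.03 and 11.35 in wild-type rims (0.59 ± 0.16, adjusted p = 0.0366). Neither pair of groups overlapped. The Tgfa call was lost with 6 arrays alone and without cub replicate 1 (adjusted p of 0.00547 to 0.122 over the alternatives). The Epgn call was lost after quantile normalization and on removing wild-type replicate 1, wild-type replicate 2, cub replicate 1 or cub replicate 3 (0.0255 to 0.144). Epgn was already higher in unwounded cub ears, by 1.00 (adjusted p = 0.00129). Hbegf (0.20 ± 0.13), Btc (0.26 ± 0.19) and Ereg (0.26 ± 0.21) did not pass, with adjusted p-values of 0.485, 0.523 and 0.593. Areg was not analysed here.

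Genes that MAPK signals switch on to restrain themselves moved both ways: of 21, 5 were higher and 2 were lower, with a median of 0.21. Phlda1, an early response gene downstream of MAPK, read 9.54, 9.37 and 9.67 in cub rims, against 8.86, 8.86 and 9.14 in wild-type rims (0.57 ± 0.12, adjusted p = 0.0051). Errfi1, a direct inhibitor of EGFR, was higher by 0.30 ± 0.06 (adjusted p = 0.00467), and the MAPK phosphatase Dusp1 by 0.47 ± 0.13 (adjusted p = 0.0361). Lrig3, of a family of membrane proteins that act on growth factor receptors, fell to 8.40, 8.60 and 8.34 in cub rims, against 8.92, 9.0 and 8.84 in wild-type rims (−0.47 ± 0.07, adjusted p = 0.000635). The ERK phosphatase Dusp6 read 11.15, 11.01 and 11.07 in cub rims, against 10.21, 10.76 and 10.96 in wild-type rims, and with this spread in wild type it did not pass (0.43 ± 0.13, adjusted p = 0.0625). The higher genes numbered 2 without cub replicate 1, 3 without cub replicate 3 and 3 without wild-type replicate 1, and Dusp1 was lost under 9 of the 14 alternatives, the removal of replicates 1 and 3 of either genotype among them (adjusted p of 0.0202 to 0.242).

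The cytokines of the interleukin 20 subfamily and their receptor moved in opposite directions. Il24 was the gene with the largest rise in the whole comparison. It read 9.16, 8.78 and 9.33 in cub rims, against 7.32, 7.19 and 7.38 in wild-type rims, a 3.47-fold difference (1.79 ± 0.11, adjusted p = 9.01e-09). Il19 rose to 7.31, 7.0 and 6.98 in cub rims, against 6.67, 6.29 and 6.41 in wild-type rims (0.64 ± 0.10, adjusted p = 0.00065). Keratinocytes and myeloid cells make these cytokines after injury, and both calls held under every alternative. The genes for Il24, Il20, Il19 and Il10 follow one another on chromosome 1, and the cluster did not move as a block: Il20 differed by 0.09 ± 0.14 (adjusted p = 0.819) and Il10 by −0.17 ± 0.13 (adjusted p = 0.556).

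The 2 chains of the receptor that binds interleukins 19, 20 and 24 both fell. Il20ra, the alpha chain, read 6.72, 7.19 and 7.18 in cub rims, against 8.37, 8.01 and 8.29 in wild-type rims (−1.19 ± 0.13, adjusted p = 9.47e-06). Il20rb, the beta chain, read 8.31, 8.63 and 8.19 in cub rims, against 8.69, 8.89 and 9.0 in wild-type rims (−0.48 ± 0.09, adjusted p = 0.0039). In both genes every cub array lay below every wild-type array. The Il20rb call was lost in the 6-array fit (adjusted p = 0.0877, between 0.000172 and 0.0877). Il22ra1, the chain that pairs with Il20rb in a second receptor for interleukin 24, did not pass (−0.23 ± 0.09, adjusted p = 0.161), nor did Stat3, the transcription factor these receptors activate (0.02 ± 0.06, adjusted p = 0.91).

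**Figure D2:**
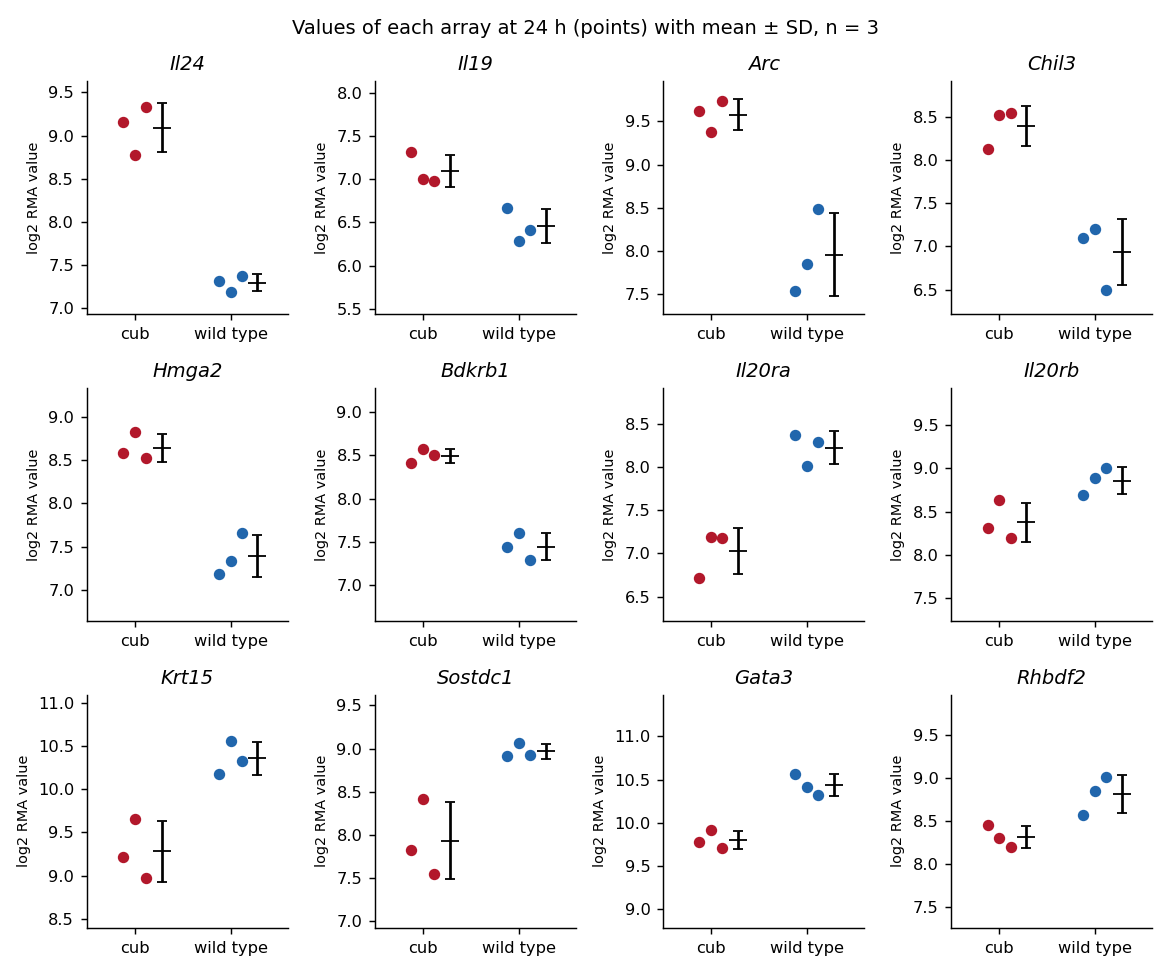
Points give the log2 RMA value of each array at 24 h for 12 genes, cub to the left of wild type in each panel, and the black bar beside each group gives its mean ± SD (n = 3). In all 12 panels the groups are apart: Il24, Il19, Arc, Chil3, Hmga2 and Bdkrb1 are higher in cub, and Il20ra, Il20rb, Krt15, Sostdc1, Gata3 and Rhbdf2 are lower. For all but Il19, Il20rb, Gata3 and Rhbdf2, lack of overlap was a condition of their choice.

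Of 27 AP-1 and immediate early genes 2 were higher and none lower, where 2.24% of all genes were higher, 24 of the differences were above 0 and the median was 0.12. One of them, Arc, known best as a cytoskeletal protein of stimulated neurons, rose by more than any gene but Il24. It read 9.62, 9.38 and 9.73 in cub rims, against 7.54, 7.85 and 8.48 in wild-type rims (1.62 ± 0.15, adjusted p = 1.63e-06). The other was Fosl2, which encodes the AP-1 subunit Fra-2 (0.30 ± 0.08, adjusted p = 0.0335). Its call was lost with 6 arrays alone, without cub replicate 3 and without wild-type replicates 1 and 2 (0.0171 to 0.223). Fos, Fosb and Egr1, the fastest genes of this class, differed by 0.23 ± 0.26, 0.16 ± 0.34 and −0.03 ± 0.14, and none of them passed.

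Genes of interleukin 1 and NF-kB signalling had differences that were small and mostly above 0. Of 17 interleukin 1 family genes 2 rose and none fell, 16 of the 17 differences were above 0, and the median was 0.25. Those that passed were co-receptor chains. Il18rap, of the interleukin 18 receptor, read 7.0, 7.11 and 6.88 in cub rims, against 6.66, 6.57 and 6.39 in wild-type rims (0.46 ± 0.09, adjusted p = 0.00422). Il1rap, of the interleukin 1 receptor, was higher by 0.36 ± 0.08 (adjusted p = 0.00682), a call lost with 6 arrays alone and without cub replicate 3 (0.00325 to 0.075). The list had 1 call without cub replicate 3 and 4 without cub replicate 1. The cytokines themselves did not pass, with Il1a at 0.58 ± 0.24 (adjusted p = 0.187) and Il1b at 0.33 ± 0.24 (adjusted p = 0.536). Of 23 NF-kB and tumour necrosis factor genes 4 rose and none fell, all 23 differences were above 0, and the median was 0.16. The 4 were Tnfaip2, Tnfaip3, Nfkbie and Icam1, induced targets of NF-kB of which Tnfaip3 and Nfkbie are feedback inhibitors, with differences of 0.48 ± 0.11, 0.43 ± 0.12, 0.41 ± 0.10 and 0.32 ± 0.09. This count was 0 without cub replicate 3 and 0 without wild-type replicate 1, and 2 without wild-type replicate 2. Il6, the inflammatory cytokine, read 8.85, 8.70 and 9.80 in cub rims, against 8.31, 7.89 and 8.62 in wild-type rims (0.84 ± 0.22, adjusted p = 0.0254). Cub replicate 3 was the highest of the 6, and the Il6 call was lost without it, without wild-type replicates 1 and 2 and with 6 arrays alone (0.00764 to 0.191).

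Hmga2, a chromatin protein of embryonic and growing tissue, and Bdkrb1, the injury-induced receptor for kinin fragments, were among the steadiest differences. Hmga2 read 8.58, 8.83 and 8.52 in cub rims, against 7.18, 7.33 and 7.66 in wild-type rims (1.25 ± 0.11, adjusted p = 1.1e-06). Bdkrb1 read 8.41, 8.57 and 8.50 in cub rims, against 7.44, 7.60 and 7.29 in wild-type rims (1.05 ± 0.09, adjusted p = 1.1e-06). In both the groups were apart by more than either group's range. Of 14 fetal growth regulators 3 rose and none fell, the others being the RNA-binding proteins Igf2bp3 (0.45 ± 0.08, adjusted p = 0.00324) and Igf2bp1 (0.33 ± 0.07, adjusted p = 0.00682). A further row of the array for Igf2bp1 differed by just 0.02, so its probes disagree. Igf2bp3 (5.67 ± 0.04 in cub, 5.23 ± 0.08 in wild type) and Igf2bp1 (5.74 ± 0.12 and 5.41 ± 0.03) were low on the array. The filter on a highest group mean of at least 6 left out Igf2bp3 and Igf2bp1. Hpgd, the enzyme that inactivates prostaglandins, fell to 8.69, 8.76 and 8.62 in cub rims, against 9.32, 9.40 and 9.31 in wild-type rims (−0.65 ± 0.07, adjusted p = 1.26e-05). Bdkrb1 and Hpgd were the sole calls among 19 prostaglandin and kinin genes, whose median was 0.04.

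Psg18, a pregnancy-specific glycoprotein otherwise known from placenta, and Mmp1a, the mouse interstitial collagenase, were low on the array and rose in cub. Psg18 read 6.88, 6.24 and 6.93 in cub rims, against 5.20, 5.74 and 5.49 in wild-type rims (1.21 ± 0.14, adjusted p = 2.21e-05). Mmp1a read 6.78, 6.60 and 6.57 in cub rims, against 5.44, 5.79 and 5.76 in wild-type rims (0.99 ± 0.08, adjusted p = 1.1e-06). Both have close relatives that share sequence, so the assignment to 1 copy is uncertain. Psg28 rose too (0.71 ± 0.09, adjusted p = 0.000129), while none of the other tested Psg genes passed (2 of 12 called, the rest between −0.12 and 0.12), and Mmp1b, the neighbour of Mmp1a, rose by 0.72 ± 0.13 (adjusted p = 0.00312).

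The promoter sequences of genes that rose are shown for the AP-1 site, since AP-1 is the main nuclear outlet of MAPK signals in keratinocytes. The RefSeq promoter windows, in build GRCm38.p6, ran from 250 bases before each gene's start to 50 bases after it, and they were found for 329 of the genes called higher, 562 of those called lower and 15563 of all genes tested, in 430, 718 and 19116 windows. The AP-1 motif TGANTCA, a palindrome, was present in 11.63% of windows of genes higher in cub, in 4.32% of windows of genes lower in cub and in 6.88% of all windows. For a STAT motif, TTCNNNGAA, these shares were 7.67%, 7.10% and 7.68%. The CRE motif TGACGTCA was in 1.63%, 2.23% and 2.37%, and an NF-kB motif was in 0.70%, 0.84% and 0.45%. Both strands were searched throughout, and no test of these shares was made. An AP-1 match was found in 48 of the 329 genes called higher that had a window. The 8 genes shown were taken from those with a match, so they do not show how common the motif is. Of the 15 largest rises 12 had a window, and most of those 12 are not shown. The lines below hold up to 61 bases around the match upstream of the start in the 8 genes shown. Each is printed 5′ to 3′ along its gene's strand, with the match in capitals. A match describes letters and does not show that a factor binds there.
Psg18, chr7:18355081-18355141, minus strand: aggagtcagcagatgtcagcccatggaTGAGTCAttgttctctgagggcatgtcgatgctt
Psg28, chr7:18432129-18432189, minus strand: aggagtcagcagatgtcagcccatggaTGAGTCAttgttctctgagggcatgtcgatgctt
Mmp1a, chr9:7464041-7464101, plus strand: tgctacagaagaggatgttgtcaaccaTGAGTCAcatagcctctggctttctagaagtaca
Mmp1b, chr9:7388086-7388146, minus strand: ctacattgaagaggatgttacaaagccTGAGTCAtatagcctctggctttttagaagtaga
Il6, chr5:30012864-30012898, plus strand: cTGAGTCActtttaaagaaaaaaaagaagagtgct
Cd80, chr16:38458864-38458924, plus strand: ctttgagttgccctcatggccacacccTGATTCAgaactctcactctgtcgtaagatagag
Ivl, chr3:92573818-92573878, minus strand: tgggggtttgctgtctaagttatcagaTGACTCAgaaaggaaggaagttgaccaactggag
Gzmb, chr14:56262359-56262419, minus strand: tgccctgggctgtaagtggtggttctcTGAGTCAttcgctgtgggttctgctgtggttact
The windows of Psg18 and Psg28 are identical, and those of Mmp1a and Mmp1b are alike around the match, so they are not independent examples. Cd80, a co-stimulatory ligand of antigen-presenting cells, was higher by 0.67 ± 0.17 (adjusted p = 0.0225), and Gzmb, the granzyme of cytotoxic lymphocytes, by 0.62 ± 0.12 (adjusted p = 0.00511).

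Genes of myeloid cells were higher in cub where they passed. Chil3, a chitinase-like protein secreted by macrophages and neutrophils, read 8.13, 8.52 and 8.54 in cub rims, against 7.10, 7.20 and 6.50 in wild-type rims (1.46 ± 0.14, adjusted p = 1.63e-06). Lyz1, a lysozyme, read 10.14, 10.28 and 10.16 in cub rims, against 9.54, 9.62 and 9.17 in wild-type rims (0.75 ± 0.12, adjusted p = 0.000988). Clec4e, the lectin Mincle that senses microbes and dead cells, read 10.15, 9.97 and 10.43 in cub rims, against 9.42, 9.58 and 9.24 in wild-type rims (0.77 ± 0.14, adjusted p = 0.00243). All 3 had groups that did not overlap and calls that held throughout. Chil3 and Lyz1 were 2 of the 3 macrophage and monocyte markers of 25 that rose, the other being the monocyte chemokine receptor Ccr2 (0.57 ± 0.16, adjusted p = 0.0378), with a median of 0.17. The defining macrophage markers Adgre1, Cd68 and Csf1r did not pass, at 0.19, 0.15 and 0.17. Lyz1 shares sequence with Lyz2, which differed by 0.24.

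Of 20 neutrophil markers 3 rose, none fell, and the median was 0.32. Next to Clec4e these were Csf3r, the receptor of granulocyte colony-stimulating factor (0.62 ± 0.15, adjusted p = 0.0149), and the collagenase Mmp8 (0.63 ± 0.18, adjusted p = 0.0471). The defining markers S100a8 (0.18) and Cxcr2 (0.40) did not pass. Averaged over the list, neutrophil markers stood at 8.57, 8.69 and 8.94 in cub rims, against 8.47, 8.47 and 8.28 in wild-type rims. Macrophage markers stood at 8.54, 8.54 and 8.82 in cub rims, against 8.45, 8.48 and 8.12 in wild-type rims. The widest gap was thus between cub replicate 3 and wild-type replicate 3. Without either of them 1 neutrophil marker was called, and Ccr2, Csf3r and Mmp8 were lost, while without cub replicate 1 there were 5. The part that numbers of infiltrating cells had in the cytokine differences was not tested.

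Of 22 CXC chemokines and receptors 2 rose and none fell (median 0.15), namely Cxcl16, a membrane-bound chemokine that ADAM10 and ADAM17 can shed (0.37 ± 0.08, adjusted p = 0.00638), and Cxcr1 (0.43 ± 0.11, adjusted p = 0.0257). Cxcr1 was lost in 5 alternatives, among them the removal of replicate 1 of either genotype, wild-type replicate 2 or cub replicate 3. Of 25 CC chemokines and receptors 3 rose and 2 fell (median 0.02). Ccr1 and Ccl6, of myeloid cells, rose by 0.51 ± 0.13 and 0.46 ± 0.11, and Ccl28, a chemokine of epithelia, fell to 5.80, 6.02 and 5.68 in cub rims, against 6.48, 6.43 and 6.05 in wild-type rims (−0.49 ± 0.11, adjusted p = 0.0122). Without cub replicate 3 none of the CC genes was called, and without wild-type replicate 3 none was higher and 5 were lower. Mast cell markers had 2 of 13 higher and a median of 0.24, led by the IgE receptor chain Fcer1a (0.66 ± 0.11, adjusted p = 0.00157), though the mast cell proteases Cpa3 and Mcpt4 did not pass, and 1 was called without cub replicate 1, cub replicate 3, wild-type replicate 2 or wild-type replicate 3. T cell markers had 2 of 16 higher and a median of 0.05, with Ctla4, an inhibitory receptor, at 0.45 ± 0.08 (adjusted p = 0.00293, between 0.000167 and 0.0591 across the alternatives). Ctla4 was low on the array, at 5.32 ± 0.19 in cub and 4.87 ± 0.06 in wild type. The filter on a highest group mean of at least 6 left it out. The count was 4 without cub replicate 1, 1 without wild-type replicate 3, where the adhesion receptor Cd2 was lost, and 0 with the 6 arrays alone.

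**Figure D3:**
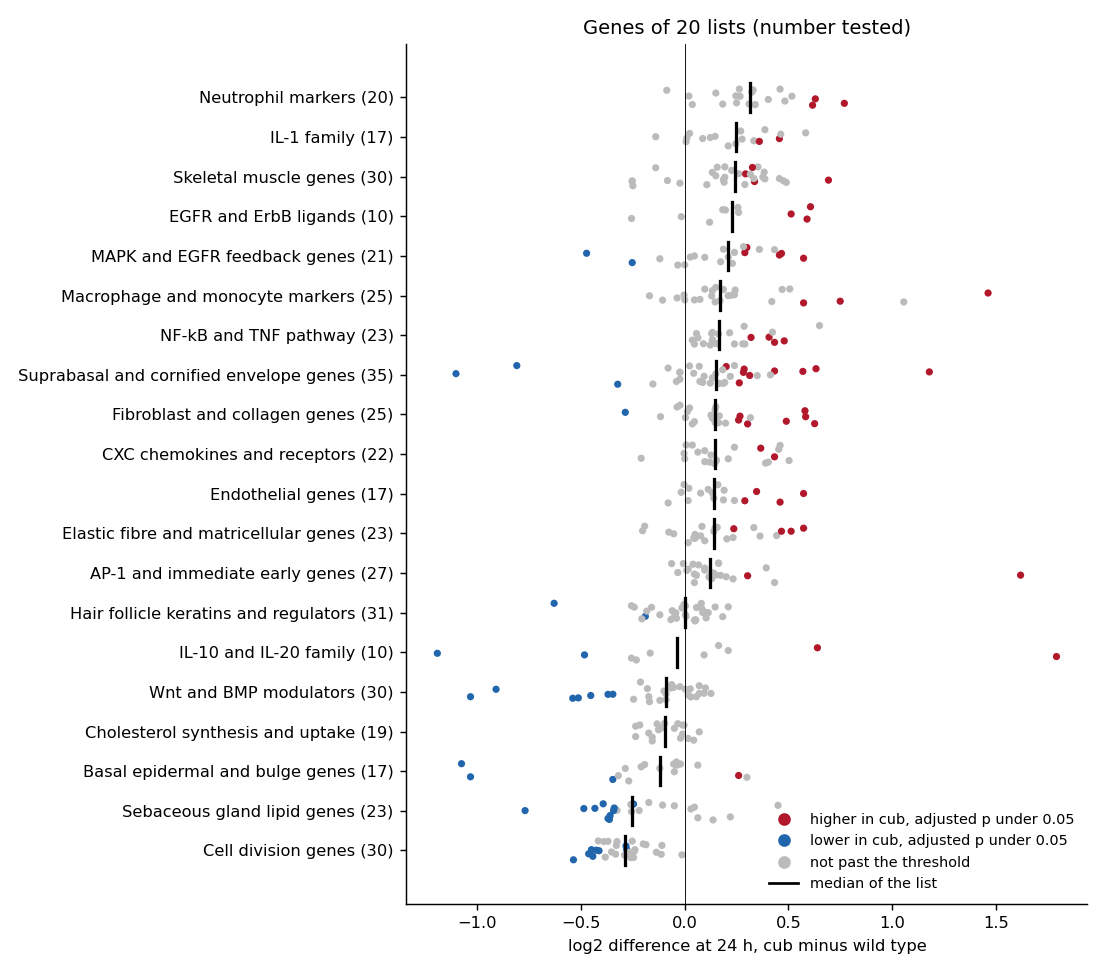
Each point is a gene of 1 of 20 lists, at its log2 difference at 24 h (cub minus wild type), coloured where the adjusted p was under 0.05, and the black bar marks the list's median. Medians run from −0.29 for 30 cell division genes to 0.32 for 20 neutrophil markers, and the interleukin 10 and 20 family spans both extremes, from −1.19 to 1.79.

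Genes of the upper epidermis were mostly higher in cub where they passed, and genes of the basal layer and bulge mostly lower. Of 35 genes of suprabasal cells and the cornified envelope 9 rose and 3 fell, with a median of 0.15. Krt77, a type II keratin of differentiated epidermis, read 12.01, 12.06 and 12.15 in cub rims, against 11.10, 10.61 and 10.97 in wild-type rims (1.18 ± 0.20, adjusted p = 0.0013). Ivl, or involucrin, the scaffold of the cornified envelope, read 10.39, 10.04 and 10.14 in cub rims, against 9.59, 9.50 and 9.58 in wild-type rims (0.63 ± 0.09, adjusted p = 0.000474). Krt1, the main suprabasal keratin, was higher by 0.43 ± 0.12 (adjusted p = 0.0337), and the protease Klk8 by 0.57 ± 0.08 (adjusted p = 0.000267). The 3 that fell are also genes of differentiated cells. Mt4, the metallothionein of stratified epithelium, read 8.14, 8.36 and 7.77 in cub rims, against 9.36, 9.23 and 8.99 in wild-type rims (−1.10 ± 0.11, adjusted p = 1.89e-06). Krt24 read 10.84, 10.82 and 10.66 in cub rims, against 11.24, 11.83 and 11.68 in wild-type rims (−0.81 ± 0.11, adjusted p = 0.0001), and Krt2 fell by 0.32. The groups of arrays were apart for each gene given here with its arrays. The 9 higher genes became 3 without cub replicate 1, 4 without cub replicate 3, and 6 and 4 without wild-type replicates 1 and 3.

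Of 17 basal epidermal and bulge genes 3 fell and 1 rose, 14 differences were below 0, and the median was −0.12. Krt15, a keratin of basal cells and of the hair follicle bulge, read 9.21, 9.66 and 8.97 in cub rims, against 10.18, 10.56 and 10.33 in wild-type rims (−1.08 ± 0.12, adjusted p = 1.7e-05). Sostdc1, a secreted inhibitor of BMP and Wnt signals made by follicle cells, read 7.83, 8.42 and 7.55 in cub rims, against 8.91, 9.06 and 8.93 in wild-type rims (−1.03 ± 0.13, adjusted p = 6.91e-05). Both genes were at least as low in cub replicate 3 as in either other cub array, and both calls held under every alternative. Dkk3, a secreted protein of the bulge, also fell (−0.35 ± 0.08, adjusted p = 0.0135), and the transcription factor Runx1 rose (0.26 ± 0.07, adjusted p = 0.0416). The general basal keratins did not follow, with Krt5 at −0.05 and Krt14 at −0.02, and neither passed. Of 31 hair follicle genes 2 fell and none rose, and the median was 0.00. Gata3, a transcription factor of the inner root sheath and of differentiating epidermis, fell to 9.78, 9.92 and 9.71 in cub rims, against 10.57, 10.41 and 10.32 in wild-type rims (−0.63 ± 0.07, adjusted p = 1.92e-05). The second was Dlx3, at −0.19 ± 0.06 (adjusted p = 0.049), which was lost under median-centring, quantile normalization and 8 further alternatives, all single-array removals but that of cub replicate 2 included (0.0283 to 0.246).

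Of 19 genes of wound-edge keratinocytes 2 rose and none fell, Hmga2 and Krt17, and the median was 0.16. The classic wound-edge keratins did not pass. Krt6a differed by 0.16 ± 0.14, Krt6b by 0.16 ± 0.44 and Krt16 by 0.07 ± 0.52. Krt17, which injured keratinocytes also induce, was higher by 0.27 ± 0.08 (adjusted p = 0.0406), with the call lost under 7 alternatives, among them all single-array removals but that of wild-type replicate 2 (0.0162 to 0.187). Krt17 was already higher in unwounded cub ears, by 0.52 (adjusted p = 0.00058). Of 15 integrin, laminin and hemidesmosome genes 2 rose, the integrin chains Itga2 (0.40 ± 0.10, adjusted p = 0.019) and Itgb1 (0.18 ± 0.05, adjusted p = 0.0406), which pair as a collagen receptor. Without cub replicate 3, cub replicate 1 or wild-type replicate 1 neither was called. Among 18 matrix metalloproteinase and inhibitor genes on a list without the Mmp1 genes, Mmp8 and the macrophage elastase Mmp12 rose (0.51 ± 0.12, adjusted p = 0.016), with none called without cub replicate 3 and none without wild-type replicate 3. Mmp3, Mmp9 and Mmp13 did not pass, at 0.14, 0.26 and 0.25.

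Modulators of Wnt and BMP signals went one way where they passed: of 30, 7 fell and none rose, and the median was −0.09. Besides Sostdc1 and Dkk3 these were Lypd6, an enhancer of Wnt signals, Bmp2, the Wnt antagonist Sfrp1, the ligand Wnt4 and Axin2, a direct target of Wnt signalling. Lypd6 read 6.32, 6.82 and 6.19 in cub rims, against 7.36, 7.32 and 7.38 in wild-type rims (−0.91 ± 0.15, adjusted p = 0.000893). Sfrp1 read 8.89, 9.11 and 8.82 in cub rims, against 9.39, 9.52 and 9.45 in wild-type rims (−0.51 ± 0.07, adjusted p = 0.000212). In both genes the wild-type arrays lay close together and above all cub arrays. The differences of Bmp2, Axin2 and Wnt4 were −0.54, −0.45 and −0.37. The list had 4 calls without cub replicate 3, all of them lower.

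Sebaceous gland genes were lower in cub, 10 of 23 passing and none rising, with a median of −0.26. Mc5r, the melanocortin receptor of the gland, read 7.09, 7.17 and 6.87 in cub rims, against 7.37, 8.21 and 7.86 in wild-type rims (−0.77 ± 0.17, adjusted p = 0.0106). Cidea, a lipid droplet protein, read 9.34, 9.40 and 9.24 in cub rims, against 9.88, 9.90 and 9.66 in wild-type rims (−0.49 ± 0.09, adjusted p = 0.00418). Neither gene's groups overlapped. The others were Awat1, Fa2h, Apoc1, Elovl5, Elovl6, Far2, Fasn and Mgst1, enzymes and carriers of lipid synthesis, with differences between −0.43 and −0.25. The wax synthase Awat2 (0.45 ± 0.21) and the desaturases Scd1 (−0.11) and Scd3 (0.22 ± 0.36) did not pass. Averaged over the list, levels were 9.92, 10.02 and 9.87 in cub rims, against 10.12, 10.21 and 10.07 in wild-type rims. The count was 4 without wild-type replicate 2 and 5 without cub replicate 3, and Mc5r was lost in each of these and with 6 arrays alone (0.00175 to 0.0771). Of 19 cholesterol synthesis genes none passed, and 16 of the differences were below 0, or 12 after median-centring (median −0.10).

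Genes of the cell division cycle were lower in cub without exception in sign. All 30 tested had a difference below 0 (29 after median-centring), and the median was −0.29. Of the 30, 8 passed and none rose, where 3.44% of all genes were called lower. Ccne2, a cyclin of the G1 to S transition, read 7.30, 7.58 and 7.47 in cub rims, against 8.08, 7.82 and 8.06 in wild-type rims (−0.54 ± 0.11, adjusted p = 0.00748). Cdca8, or borealin, a chromosomal passenger protein, read 6.98, 7.0 and 6.99 in cub rims, against 7.56, 7.26 and 7.54 in wild-type rims (−0.46 ± 0.10, adjusted p = 0.0104). Both calls held under every alternative. The others were Cdca3, Kif20a, Aurka, Mcm6, Pcna and Ccne1, which act in mitosis or in DNA replication, with differences between −0.45 and −0.28. In 19 of the 30 genes the cub arrays lay wholly below the wild-type arrays, against 9.91% of all genes. The marker of dividing cells Mki67 read 8.98, 8.85 and 8.83 in cub rims, against 9.34, 9.07 and 9.50 in wild-type rims and did not pass (−0.42 ± 0.14, adjusted p = 0.0856). The list averaged 8.14, 8.09 and 8.06 in cub rims, against 8.38, 8.26 and 8.56 in wild-type rims, so that wild-type replicate 3 was the highest. Without that array 5 genes were called, without cub replicate 3 4 were, and without wild-type replicate 2 12 were, each of them lower in cub.

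**Figure D4:**
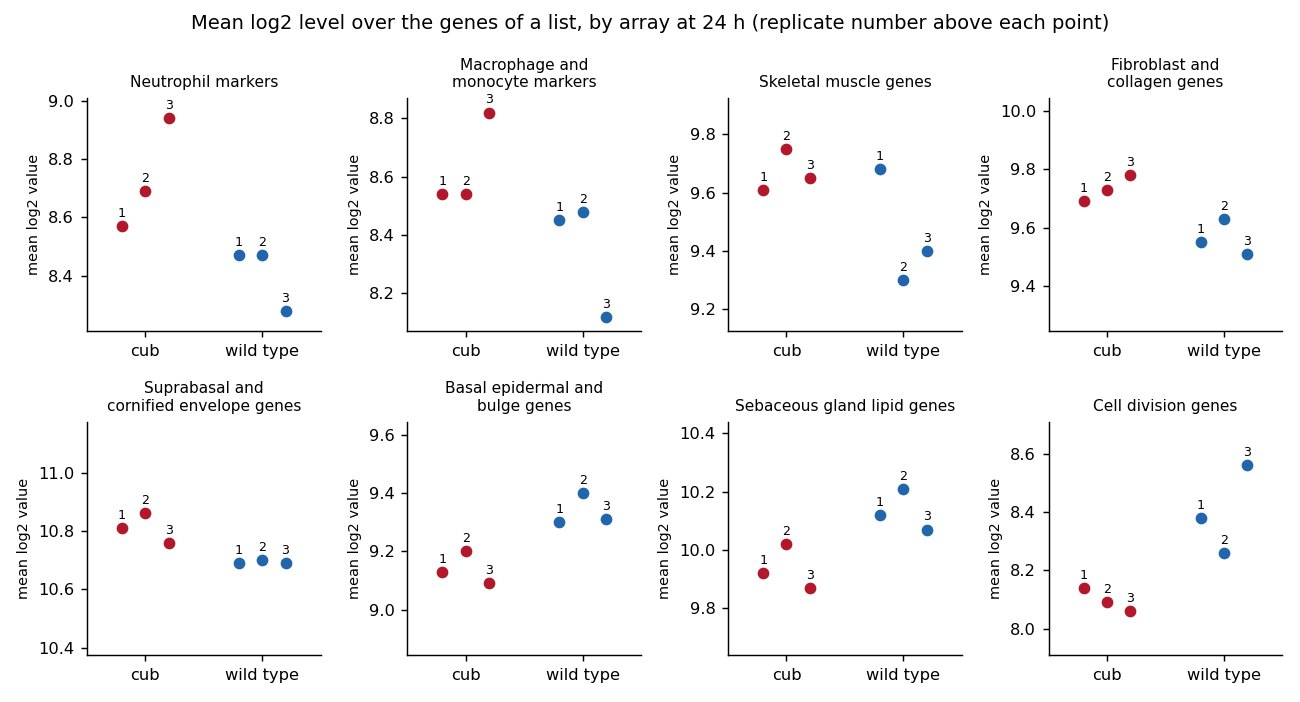
Each point is the mean log2 value over the genes of a list on 1 array at 24 h, with the replicate number above it and cub to the left of wild type. Neutrophil, macrophage, fibroblast and suprabasal genes are higher on every cub array, basal, sebaceous and cell division genes are lower on every cub array, and skeletal muscle genes overlap, with wild-type replicate 1 at 9.68.

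Collagen genes were mostly higher in cub where they passed. Of 25 fibroblast and collagen genes 7 rose and 1 fell, with a median of 0.15. Col3a1 read 10.39, 10.58 and 10.51 in cub rims, against 9.73, 10.04 and 9.96 in wild-type rims (0.58 ± 0.10, adjusted p = 0.00146). Col1a1 read 11.25, 11.46 and 11.31 in cub rims, against 10.52, 10.89 and 10.87 in wild-type rims (0.58 ± 0.10, adjusted p = 0.00158). Both held under every alternative, and their groups were apart. The others were Col1a2, Col14a1, Col4a1, Col5a1 and Col5a2, between 0.26 and 0.63, while Col12a1 fell by 0.29. Markers of fibroblasts other than collagens did not pass: Pdgfra was at 0.32, Lum at 0.15 and the myofibroblast actin Acta2 at 0.01. Eln, or elastin, read 9.14, 9.46 and 9.51 in cub rims, against 8.79, 8.93 and 8.67 in wild-type rims (0.57 ± 0.11, adjusted p = 0.00312), one of 4 of 23 elastic fibre and matricellular genes that rose and none that fell (median 0.14). Has3, a hyaluronan synthase of keratinocytes, was higher by 0.56 ± 0.11 (adjusted p = 0.0054), a call lost with 6 arrays alone (0.00244 to 0.0775). The 7 collagen calls became 4 without cub replicate 3, and the 4 elastic fibre calls became 2 without it and 2 without wild-type replicate 3.

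Genes of vessels and skeletal muscle were also higher in cub where they passed. Of 17 endothelial genes 4 rose and none fell (median 0.14): Sele, the adhesion molecule of activated endothelium, Angpt2, Esam and Tek, at 0.57, 0.46, 0.35 and 0.29. Only Esam (0.35 ± 0.07, adjusted p = 0.00487) held under every alternative, and the general markers Pecam1 and Cdh5 did not pass. The endothelial count was 1 without wild-type replicate 2, wild-type replicate 3 or cub replicate 2, and 2 without cub replicate 1 or cub replicate 3. Skeletal muscle genes had a median of 0.24 with 4 of 30 higher and none lower. Myoz1, a sarcomere protein of fast fibres, read 9.03, 9.45 and 9.24 in cub rims, against 8.76, 8.38 and 8.50 in wild-type rims (0.69 ± 0.14, adjusted p = 0.00445). Actc1, an actin of heart and regenerating muscle, is not on that list and had a wide spread, at 9.10, 9.56 and 9.47 in cub rims, against 8.49, 7.66 and 7.92 in wild-type rims (adjusted p = 0.0396), and it was lost under 7 of 14 alternatives, without each array but wild-type replicate 1 among them (0.0199 to 0.141). The muscle count was 9 without wild-type replicate 1 and 7 without cub replicate 1. It was 2 without cub replicate 2, and 1 without wild-type replicate 2, wild-type replicate 3 or cub replicate 3. No cartilage, melanocyte or nerve gene passed, of 17, 10 and 11 tested, and 1 of 17 adipocyte genes did, the glucose transporter Slc2a4 (0.49 ± 0.10, adjusted p = 0.00773). With 5.68% of all genes passing, so few calls in short lists say little about these tissues.

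Few genes of stress pathways passed. Only 5.68% of all genes did, so few or no calls in lists as short as those in this paragraph say little about a pathway. Of 19 NRF2 target and glutathione genes, the antioxidant set that the series' title names, none rose and 1 fell, with a median of 0.01. The one was Gclm, a subunit of the enzyme that makes the precursor of glutathione (−0.21 ± 0.06, adjusted p = 0.0406), and its call was lost under 8 of 14 alternatives, median-centring and the removal of each array but cub replicate 2 among them (0.00647 to 0.228). Under median-centring the count was 1 higher and 0 lower. Nqo1 read 8.98, 9.29 and 8.81 in cub rims, against 9.25, 9.48 and 9.31 in wild-type rims (−0.32 ± 0.11, adjusted p = 0.111). Hmox1 (0.11 ± 0.15), Srxn1 (0.04 ± 0.07) and Txnrd1 (0.11 ± 0.09), further targets, did not pass. Without cub replicate 2, 5 genes of this list were lower and 1 was higher. None of 20 ATF4 and unfolded protein response genes or of 21 interferon-stimulated genes passed, and of 11 heat shock genes only Hspa1a did (−0.53 ± 0.08, adjusted p = 0.000417). Of 20 genes of the TGF-beta and activin pathway 1 rose, the activin subunit Inhba (0.43), lost under 8 alternatives, and there were 4 calls under median-centring. No gene passed among 15 Langerhans cell and MHC class II genes, 6 plasminogen activation genes and 7 erythroid and platelet genes.

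Metabolic, clock and antimicrobial genes held single strong differences. Slc16a3, the lactate exporter, read 10.13, 9.97 and 10.60 in cub rims, against 9.72, 9.45 and 9.41 in wild-type rims (0.71 ± 0.13, adjusted p = 0.00218), and with Pdk4, a kinase that holds back pyruvate oxidation (0.83 ± 0.22, adjusted p = 0.0321), it made up the 2 of 24 hypoxia and glycolysis genes that rose. Of 17 clock genes Per1 (0.52 ± 0.10, adjusted p = 0.0038) and Bhlhe40 (0.35 ± 0.08, adjusted p = 0.014) rose, while Hlf (−0.74 ± 0.12, adjusted p = 0.000832) and Arntl (−0.36 ± 0.08, adjusted p = 0.00682) fell. In unwounded ears 5 clock genes were already higher in cub and 3 lower. Per1 (0.54, adjusted p = 0.0032), Bhlhe40 (0.36, adjusted p = 0.0131) and Arntl (−0.45, adjusted p = 0.00139) passed there, and Hlf did not (−0.34, adjusted p = 0.096). Arntl passed as lower at every time. The time of day of the biopsies was not given, so its part in these genes was not tested. Saa3, an acute phase protein of wounds, read 9.05, 8.46 and 8.90 in cub rims, against 8.32, 7.16 and 7.53 in wild-type rims (1.13 ± 0.19, adjusted p = 0.00103), the largest of 3 rises among 21 antimicrobial genes. The median of that list was 0.08, and 1 gene fell, Defb6 (−0.28 ± 0.08, adjusted p = 0.0425), a call lost under 8 of 14 alternatives. The calls of Slc16a3, Hlf, Arntl and Saa3 were lost with 6 arrays alone (adjusted p of up to 0.0619, 0.0689, 0.11 and 0.0734). That of Bhlhe40 was lost there and without wild-type replicate 1 (up to 0.0849), and that of Pdk4 without each array but wild-type replicate 1 and with trended moderation (up to 0.147).

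Among the largest differences several genes fell outside these themes. Car4, a membrane carbonic anhydrase, read 7.77, 7.84 and 8.11 in cub rims, against 6.88, 6.55 and 6.38 in wild-type rims (1.30 ± 0.14, adjusted p = 1.26e-05). Slc38a4, a sodium-coupled amino acid transporter, read 8.02, 7.77 and 7.40 in cub rims, against 6.50, 6.69 and 6.57 in wild-type rims (1.14 ± 0.16, adjusted p = 0.00016). Fgf23, the phosphate hormone known from bone, read 10.74, 10.13 and 10.82 in cub rims, against 9.29, 9.53 and 9.64 in wild-type rims (1.08 ± 0.15, adjusted p = 0.000154). All 3 differed by 2-fold or more and held under every alternative. Adh6a, an alcohol dehydrogenase, rose by 0.86 ± 0.13 (adjusted p = 0.000548) while its relative Adh6b fell by 0.43, and the natural killer receptor gene Klra2 rose by 0.90 ± 0.16 (adjusted p = 0.00223), a call lost with 6 arrays alone (0.0004 to 0.0984).

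On the lower side, Guca2a, or guanylin, a peptide best known from the gut, read 5.54, 5.98 and 5.65 in cub rims, against 7.06, 6.94 and 6.85 in wild-type rims (−1.23 ± 0.14, adjusted p = 2.29e-05). Cdhr1, a cadherin known from photoreceptors, read 7.32, 7.37 and 7.20 in cub rims, against 8.10, 8.35 and 8.09 in wild-type rims (−0.88 ± 0.08, adjusted p = 1.1e-06). Dsg1c, a desmosomal cadherin, read 5.08, 5.20 and 5.10 in cub rims, against 5.94, 6.27 and 5.94 in wild-type rims (−0.92 ± 0.11, adjusted p = 2.29e-05). Every cub array lay below every wild-type array in these genes, which their choice among the 15 largest falls required. Serpinb6d, a serpin (−1.08 ± 0.18), Slc16a14, of the monocarboxylate transporter family (−0.88 ± 0.13), and Gna14, a G protein alpha subunit (−0.86 ± 0.10), fell as well, with adjusted p-values of 0.00131, 0.000569 and 2.66e-05. Serpina3b, a serpin with near copies on the array, had the largest fall of all genes that passed, −1.43 ± 0.33 (adjusted p = 0.012), and Akr1c18, which inactivates progesterone, followed at −1.37 ± 0.32 (adjusted p = 0.0135). The Serpina3b call was lost without cub replicates 1 and 3 in turn (0.00207 to 0.0717), and the Akr1c18 call without cub replicate 3 or wild-type replicate 2 (0.00462 to 0.0692). Npbwr1, a neuropeptide receptor (−0.91 ± 0.20, adjusted p = 0.01), and Kazald1, a Kazal-type inhibitor domain protein (−0.86 ± 0.18, adjusted p = 0.00588), completed the 15 largest falls, with calls lost with 6 arrays alone and, for Npbwr1, without cub replicate 3 (up to 0.0967 and 0.122).

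How far the 24 h picture was there before can be read from the other times, which used other mice. In either direction 5.25% of genes passed at 0 h, 3.45% at 15 min and 4.41% at 2 h. At 15 min cub had just 2 arrays, against 3 in every other group, which limits the calls and shared genes at that time. Of the 447 genes higher at 24 h, 280 passed in that direction at no other time and 21 at all 4 times, and of the 686 lower genes 570 and 14 did. With the 663 genes higher in unwounded cub ears (3.33% of genes), the 24 h list shared 97, or 21.7% of the 24 h genes and 14.6% of those at 0 h. With the 765 genes higher at 2 h (3.84%) it shared 127, or 28.4% and 16.6%. Lower genes shared 94 with the 384 at 0 h (1.93%), or 13.7% and 24.5%, and 32 with the 115 at 2 h (0.577%), or 4.66% and 27.8%. At 15 min the shared genes were 34 of 313 higher and 47 of 375 lower (1.57% and 1.88% of genes), or 7.61% and 6.85% of the 24 h lists and 10.9% and 12.5% of the others. At most 7 genes in a pair of lists had opposite calls. In wild-type ears 793 genes were higher and 797 lower at 2 h than at 0 h (3.98% and 4.00%, or 7.97% in all), on arrays not used at 24 h. Genes higher in cub at 24 h included 83 of the genes higher at 2 h in wild type (18.6% and 10.5% of the 2 lists) and 8 of the genes lower there (1.79% and 1.00%). Genes lower in cub included 11 of the genes higher at 2 h in wild type (1.6% and 1.39%) and 88 of those lower (12.83% and 11.04%).

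Whether a gene's 24 h difference was unlike the earlier ones was tested as a difference of differences. Against 0 h 200 genes passed (1.00%), 51 upward (0.256%) and 149 downward (0.747%). Against 2 h 136 passed (0.682%), 30 upward (0.150%) and 106 downward (0.532%). Against the mean of 0 h, 15 min and 2 h 363 passed (1.82%), 96 upward (0.481%) and 267 downward (1.34%). These tests share the 24 h arrays, so they are not independent. Il24 differed by 0.03, −0.09 and 0.24 at 0 h, 15 min and 2 h, and none of these passed. Its difference at 24 h exceeded their mean by 1.73 ± 0.13 (adjusted p = 3.15e-07). Hmga2 (1.26 ± 0.13, adjusted p = 1.31e-05), Chil3 (1.48 ± 0.16, adjusted p = 2.91e-05), Bdkrb1 (0.96, adjusted p = 4.34e-05) and Psg18 (1.20 ± 0.16, adjusted p = 0.000403) also passed this test, though Bdkrb1 was already higher by 0.34 at 2 h (adjusted p = 0.0383). Among genes lower in cub the same test passed for Cdhr1 (−0.96, adjusted p = 1.15e-05), Gata3 (−0.66, adjusted p = 0.000179), Sostdc1 (−1.05 ± 0.15, adjusted p = 0.000894), Krt15 (−0.87, adjusted p = 0.00223) and Il20ra (−0.86, adjusted p = 0.00383).

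Arc came earlier: it differed by −0.11 at 0 h, by 0.11 at 15 min and by 1.13 at 2 h (adjusted p = 0.000164), ahead of 1.62 at 24 h. A further set was different before wounding and stayed so. Krt77 differed by 1.87, 1.43, 1.12 and 1.18 at 0 h, 15 min, 2 h and 24 h, each past the threshold, and Ivl by 0.70, 0.54, 0.46 and 0.63. Lypd6 (−1.32, −1.26, −0.95 and −0.91) and Guca2a (−1.05, −0.92, −0.86 and −1.23) were low throughout. For these 4 genes the difference of differences did not pass. In the same order of times, Epgn differed by 1.00, 1.03, 1.13 and 0.59, and Cxcl16 by 0.68, 0.495, 0.44 and 0.37. Krt24 (−1.40, −1.39, −0.95 and −0.81), Serpina3b (−1.30, −1.38, −1.73 and −1.43) and Ccl28 (−0.69, −0.53, −0.72 and −0.49) were lower throughout. All of these differences passed. Krt17 differed by 0.52, 0.46, 0.26 and 0.27 and passed at all times but 2 h. From Epgn to Krt17, no gene passed for 24 h against the earlier mean. In other genes the difference was smaller at 24 h than at 0 h. Pdk4 was higher in cub by 2.70 at 0 h, 2.12 at 15 min and 0.83 at 24 h. At 2 h it had already narrowed to 0.27 and did not pass (adjusted p = 0.603). The differences at 24 h and 0 h were −1.87 ± 0.32 apart (adjusted p = 0.00514). Against the mean of the earlier times Pdk4 did not pass (adjusted p = 0.0997). Rhbdf2 crossed over, at 0.41 at 0 h (adjusted p = 0.00883) and −0.49 at 24 h, and its 24 h value lay 0.74 below the mean of the earlier ones (adjusted p = 0.000496). The EGFR ligand Btc was higher by 1.31 at 0 h, 0.95 at 15 min and 1.09 at 2 h, all past the threshold. It read 6.72, 6.59 and 6.71 in cub rims at 24 h, against 6.27, 6.54 and 6.43 in wild-type rims, and the difference of differences was −0.86 ± 0.22 (adjusted p = 0.0458). Scd3, the sebaceous desaturase, was higher by 2.48 at 0 h and differed by 0.22 at 24 h, which was −2.26 ± 0.50 apart (adjusted p = 0.033).

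**Figure D5:**
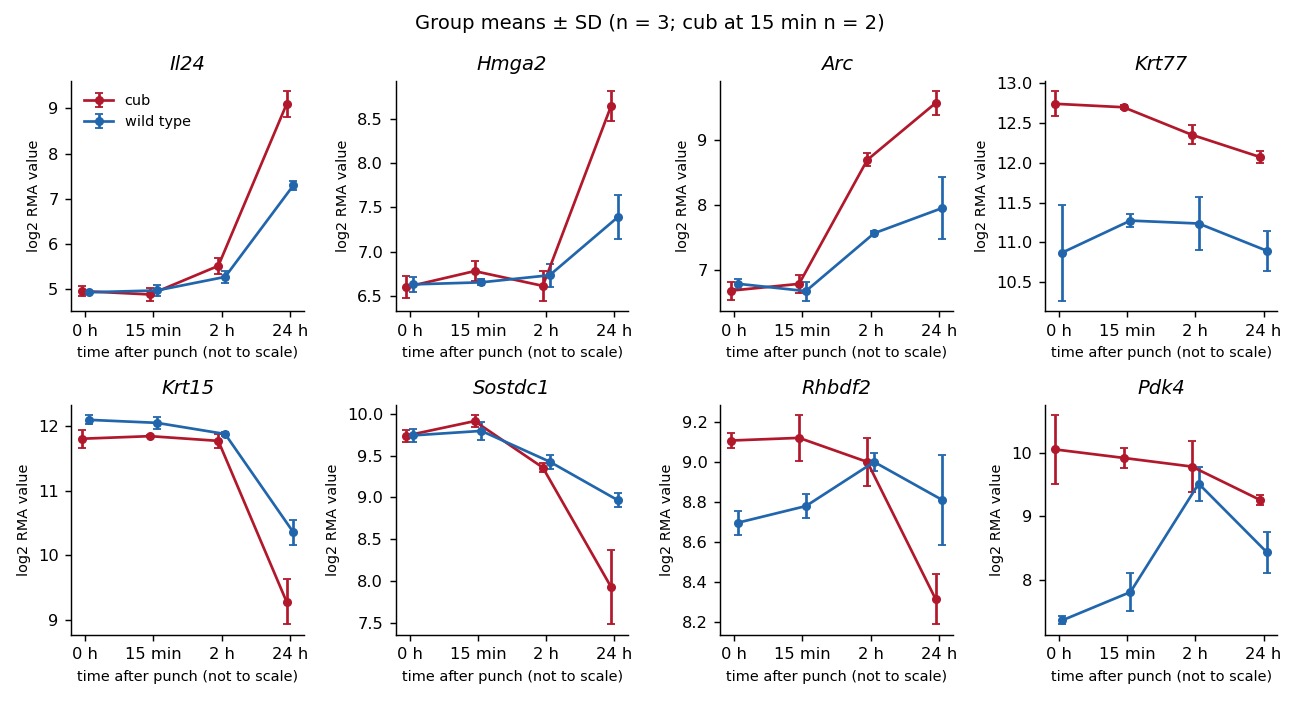
Lines join group means of log2 RMA values at 0 h, 15 min, 2 h and 24 h (categories, not to scale) with SD bars (n = 3, but n = 2 for cub at 15 min). The genotypes part at 24 h in Il24, Hmga2, Krt15 and Sostdc1, at 2 h in Arc, are apart at every time in Krt77, and cross in Rhbdf2. In Pdk4 they are closest at 2 h and nearer at 24 h than at 0 h.

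Medians of the lists at the other times are given in the order 0 h, 15 min, 2 h and 24 h. Cell division genes had 0.03, 0.11, 0.09 and −0.29, and their median of 24 h minus the earlier mean was −0.35. Skeletal muscle genes had 0.20, −0.03, −0.11 and 0.24, so that the median genotype difference was about as large in unwounded ears as at 24 h. Collagen and fibroblast genes had 0.20, 0.07, 0.35 and 0.15, with 6 of 25 higher at 0 h and 18 at 2 h. Elastic fibre genes had 0.25, 0.14, 0.43 and 0.14, with 7 of 23 higher at 0 h and 15 at 2 h. The 0 h median was thus above the 24 h median in both of these lists. Macrophage markers had 0.24, 0.05, 0.51 and 0.17, with 4 of 25 higher at 0 h and 10 at 2 h. Mast cell markers had 0.29, 0.07, 0.41 and 0.24, with 2 of 13 higher at 0 h and 8 at 2 h. Endothelial genes had 0.30, 0.19, 0.35 and 0.14, with 8 of 17 higher at 0 h and 9 at 2 h. Neutrophil markers had 0.04, 0.12, 0.44 and 0.32, with 1 of 20 higher at 0 h and 9 at 2 h. Suprabasal and cornified envelope genes had 0.25, 0.08, 0.14 and 0.15. Of these 35, 14 were higher and 4 lower at 0 h, and 8 were higher and 1 lower at 2 h. The times come from separate mice, and the change in a list's median was not tested.

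Around Rhbdf2, where donor sequence of the congenic strain would lie, 50 neighbouring genes were examined, 25 on each side. None was higher at 24 h and 1 was lower (2.0%), with a median of −0.03. That gene was Ten1, a telomere-capping subunit that read 8.59, 8.66 and 8.66 in cub rims, against 9.05, 8.87 and 8.81 in wild-type rims (−0.27 ± 0.08, adjusted p = 0.0405). Its call was lost under 7 alternatives, among them each single-array removal but that of wild-type replicate 3 (0.0315 to 0.178). The threshold fell among small differences. Mmab, an enzyme of cobalamin metabolism, was just inside it at −0.27 ± 0.08 (adjusted p = 0.0498), and Abhd12b was just outside it at −0.51.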

How the data were processed

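Total RNA from wound rims at 24 h (6 of 23 arrays in the series) was measured on Mouse Gene 1.0 ST arrays. The deposited values are on a log2 scale and carry 2 decimals. For these log2 values the submitters' processing notes name RMA and Expression Console 1.1 of Affymetrix as the authors' tools. They were used without further scaling. Of 35556 deposited features, 21789 had 1 gene symbol, 1621 had several and 12146 had none. Where a gene had more than 1 feature (999 genes) the one with the highest mean was kept, which left 19938 genes. No scan date was given, so no batch could be tested.

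One linear model (limma 3.58.1, R 4.3.3) over the 23 arrays held 8 group means and had 15 residual and 5.61 prior degrees of freedom. Contrasts were cub minus wild type at each time and differences of these, with Benjamini-Hochberg adjustment over all genes and a threshold of 0.05. The steps were tested on simulated data. The authors' own test, in R/maanova by the series' design text, was not run. Gene lists and the members described were chosen with earlier results of these data known. Named genes were the 15 largest rises and 15 largest falls among called genes whose arrays did not overlap, up to 4 called members of each list, the 6 largest in each direction for each difference of differences, the iRhom2 and EGFR ligand genes, the interleukin 10 cluster, called neighbours of Rhbdf2, and genes next to the threshold. Other genes given with values, such as Psg28, Mmp1b, Cd80, Gzmb, Klk8, Errfi1 and the members that did not pass, were chosen after their values were seen. RefSeq promoters (GRCm38.p6) were searched for motifs. Alternatives were median-centring, quantile normalization, a filter on a highest group mean of at least 6, every feature with 1 symbol, a fit of the compared groups alone, the replicate number as a block, trended and robust moderation, array weights and the removal of each array. Deviations of same-numbered cub and wild-type arrays at 24 h correlated at −0.158, 0.113 and −0.192, and those of differently numbered arrays at −0.077 to 0.243. With 3 arrays in each group these values can neither show nor exclude a pairing, and the main fit used none. The replicates are labelled as biological. The p-values set a difference against the spread between replicates pooled over the 8 groups, not against that of the 24 h arrays alone.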

Additional observations from a re-analysis of the deposited data

Results flagged for a closer look

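In each result below, the genotype difference itself differed between times in limma, after Benjamini-Hochberg adjustment over all genes, with the standard error after each value. The counts were 200 genes for 24 h against 0 h, 136 for 24 h against 2 h and 363 for 24 h against the mean of the 3 earlier times.

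Against 0 h, the difference at 24 h was more positive by 1.77 ± 0.16 for Il24, 1.73 ± 0.21 for Arc, 1.51 ± 0.19 for Chil3, 1.28 ± 0.15 for Hmga2, 1.27 ± 0.21 for Fgf23 and 1.27 ± 0.20 for Psg18. It was more negative for Scd3 (−2.26 ± 0.50), Pdk4 (−1.87 ± 0.32), Mill1 (−1.51 ± 0.19), Il12rb2 (−1.38 ± 0.20), Myh2 (−1.33 ± 0.27) and Fcrls (−1.20 ± 0.26).

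Against 2 h, the values were 1.55 ± 0.16 for Il24, 1.55 ± 0.19 for Chil3, 1.37 ± 0.15 for Hmga2, 1.26 ± 0.20 for Car4, 1.18 ± 0.20 for Psg18 and 1.18 ± 0.27 for Inmt. They were −0.97 ± 0.17 for Krt15, −0.96 ± 0.18 for Sostdc1, −0.90 ± 0.21 for Gpx2, −0.87 ± 0.11 for Cdhr1, −0.84 ± 0.16 for Kdelr3 and −0.83 ± 0.17 for Dct.

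Against the mean of the earlier times, the values were 1.73 ± 0.13 for Il24, 1.48 ± 0.16 for Chil3, 1.26 ± 0.13 for Hmga2, 1.24 ± 0.18 for Arc, 1.20 ± 0.16 for Psg18 and 1.16 ± 0.22 for Saa3. They were −1.99 ± 0.42 for Scd3, −1.07 ± 0.17 for Il12rb2, −1.07 ± 0.16 for Mill1, −1.05 ± 0.15 for Sostdc1, −1.04 ± 0.22 for Fcrls and −0.96 ± 0.17 for Gpx2.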

How the results depend on the processing

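Of 117 named genes that passed at 24 h, 47 kept their call under every alternative that tested them (up to 14), 14 lost it only with the 6 arrays fitted alone, and none changed direction. The 1133 calls became 258 with those 6 arrays alone, and 443 to 1364 with 1 array left out, lowest without cub replicate 3 and highest without cub replicate 2. Their split was 599 higher and 556 lower under median-centring. The 200 genes that differed from 0 h became 74 with those groups alone, 437 with array weights, and 83 (without wild-type 0 h replicate 2) to 317 (without cub 24 h replicate 2) with 1 array left out. The 136 that differed from 2 h became 19, 284, and 40 (without cub 2 h replicate 1) to 302 (without cub 24 h replicate 2). The 363 that differed from the earlier mean became 126 (without cub 24 h replicate 3) to 467 (without cub 24 h replicate 2). The fit of fewer arrays has fewer degrees of freedom, and the cause of the other shifts was not tested. With the replicate number as a block, the counts were 1025, 161, 105 and 321, and this block moved no count by over 1.5 times. The number of arrays limits what can be called, and many calls rest on differences under 1.5-fold.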

Other observations

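The genes in this section lie outside the lists above and were chosen after their values were seen. They were not drawn from a list, so they say nothing of any gene group. Orc1, of the origin recognition complex, read 5.72, 6.16 and 5.55 in cub rims, against 6.32, 6.57 and 6.58 in wild-type rims (−0.68 ± 0.11, adjusted p = 0.000739). Fbxo5, an inhibitor of the anaphase-promoting complex, read 6.85, 6.60 and 6.56 in cub rims, against 7.34, 7.37 and 7.54 in wild-type rims (−0.75 ± 0.12, adjusted p = 0.000949). Esco2, a cohesin acetyltransferase, was lower by 0.77 on the log2 scale. E2f7, a repressor among the E2F factors, was higher, at 9.49, 9.19 and 9.17 in cub rims, against 8.21, 8.42 and 9.05 in wild-type rims (0.72 ± 0.14, adjusted p = 0.00396). For Orc1, Fbxo5 and E2f7 the difference also passed against the mean of the earlier times (adjusted p of 0.00516, 0.0167 and 0.0349), and for Esco2 it did not (0.199).

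Lrp4, of the LDL receptor-related protein family, read 8.06, 8.31 and 7.94 in cub rims, against 8.76, 8.77 and 8.90 in wild-type rims (−0.71 ± 0.08, adjusted p = 2.29e-05). Tnfrsf19, or Troy, a receptor of progenitor cells, differed by −0.56 ± 0.09 (adjusted p = 0.000929) and Lgr4, an R-spondin receptor, by −0.47 ± 0.09 (adjusted p = 0.00426). No array of one genotype overlapped the other in these genes. The kallikrein proteases Klk10 (0.54 ± 0.12, adjusted p = 0.0087) and Klk13 (0.80 ± 0.14, adjusted p = 0.00159) and the connexin Gjb6 (0.77 ± 0.13, adjusted p = 0.00114) rose. Nppb, the natriuretic peptide B known from heart, read 10.98, 10.79 and 10.84 in cub rims, against 9.89, 10.08 and 10.39 in wild-type rims (0.75 ± 0.10, adjusted p = 7.68e-05).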
